A study of Mus musculus with 9 samples.

Results

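Of 19824 named mouse genes that lie off the X and Y chromosomes and have a probe on the array, 240 (1.21%) were detected only after 12 weeks of treatment of colon organoids. A gene was counted when a probe of it was called well above background by the scanner software on at least 2 of the 3 arrays of 12 weeks, and no probe of it was so called on any of the 6 arrays of 0 and 60 weeks. The genes Cdkn2a and Cdkn2b were left out by name, and 18 genes of the X and Y chromosomes that otherwise met the rule were not counted. Colon organoids are epithelial mini-organs grown in culture, and RNA was taken from untreated organoids (0 weeks) and from organoids treated for 12 or 60 weeks with unspecified "inflammatory reagents", with 3 single-colour arrays per group. The labels give no strain, age or genotype and do not say whether replicates came from separate animals or cultures, so spread between arrays may be technical. No untreated culture of 12 or 60 weeks is among the samples, so treatment and time in culture cannot be told apart.

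The epithelium of the colon renews itself from stem cells at the base of its crypts, whose daughters become absorptive colonocytes or secretory cells. Colonocytes take up short-chain fatty acids made by bacteria, salt and water, and can pass bile acids on towards the blood through a transporter. During injury and inflammation the epithelium is known to turn on genes of repair and defence, to send ligands to neighbouring cells, and to lose part of its absorptive programme.

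A level is the log2 of a probe's signal over the 75th percentile of its array, so that a probe as bright as that percentile has a level of 0. Levels of different probes also reflect how well each probe binds, so ranks by level are ranks of signal. The lowest signal called well above background lay between -5.17 and -4.52, depending on the array. The 240 genes were chosen by these same signals at all 3 times, so their levels and folds are descriptions and carry no test. In RNA from whole cultures, fewer cells of a type and less RNA per cell cannot be told apart. Where a gene was at background, its fold is a lower bound, computed with each dim array set to its lowest well-above-background signal, unless the gene itself read higher there.

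By the same rule, 84 genes (0.424%) were detected only at 0 weeks and 62 (0.313%) only at 60 weeks. Within the 240 genes, 111 (46.3%) were above background on all 3 arrays of 12 weeks and 129 on exactly 2. On all 3 arrays of their time were 45 of the 84 genes of 0 weeks and 31 of the 62 genes of 60 weeks. With the mean at least 2-fold above the lowest called signal, 28 genes were left at 0 weeks, 112 at 12 weeks and 22 at 60 weeks. Another 74 genes met the 12 weeks part of the rule but were called once, on 1 array of 0 or 60 weeks. Genes that fell short by 1 array of 12 weeks were not counted. The count fell to 124 without replicate 1 of 12 weeks, to 206 without replicate 2 and to 132 without replicate 3, since both remaining arrays then had to be called.

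**Figure D1:**
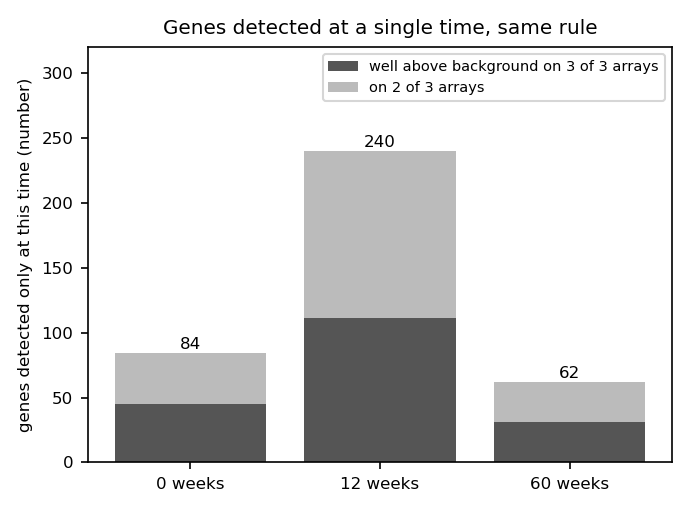
Number of genes (vertical axis) detected only at 0, 12 or 60 weeks by the same detection rule, split into genes above background on 3 of 3 arrays (dark) and on 2 of 3 (light). The 12 weeks bar reaches 240 genes, against 84 at 0 weeks and 62 at 60 weeks.

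Detection by this rule is not absence of signal at the other times. The scanner's weaker call, that a spot is positive and significant against its background, was met on at least 1 array of 0 weeks by 157 of the 240 genes and on at least 1 array of 60 weeks by 163, and 43 met it on none of the 6 arrays. The groups did not overlap between 12 and 0 weeks for 185 of the genes, where 24.9% of all 14013 tested genes lay higher on all 3 arrays. Between 12 and 60 weeks they did not overlap for 197, where the share over all tested genes was 21.9%. Nothing is read from these 2 counts, since the rule chose for them.

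Most of the 240 genes were dim even at 12 weeks. The median of their mean levels was -3.89, with a range of -5.39 to 1.26. Only 10 lay above 0, 40 lay above -2 and 111 lay below -4. The lower bound exceeded 2-fold for 110 genes and 8-fold for 34 genes at 12 against 0 weeks, and 8-fold for 34 genes at 60 against 12 weeks. No bound above 1 could be given for 33 genes against 0 weeks and for 34 against 60 weeks. The genes nearest the threshold show how little separates the dimmest from the rest: Sprr2e, Rnf150 and Dtx1, with means of -5.39, -5.29 and -5.28, were the dimmest inside the rule. Just outside it, Olfr786, Gm1987 and Prss30 had means at 12 weeks of -5.34, -4.41 and -4.82, and each was called on 1 array of 0 weeks at 0, 0.08 and 0.11 above that array's lowest called signal.

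The cultures carried epithelial RNA at all times: each of 8 epithelial markers, among them Epcam, Cdh1 and Cdx2, was detected on all 9 arrays. Of markers of other cells, 12 of 28 for T, B and natural killer cells were detected on no array, among them Ptprc and Cd3d, as were 12 of 23 for myeloid cells, among them Itgax, Spi1 and Cx3cr1. For fibroblasts, muscle and endothelium 15 of 30 were detected on no array, among them Pdgfra, Dcn and Lum, and for neurons and glia 6 of 22, among them Stmn2. Detected on all 9 arrays were 7 of the T, B and natural killer cell markers, Cd4 among them, 8 of the myeloid, 7 of the fibroblast, muscle and endothelial and 7 of the neuron and glia markers. Some facts of the arrays bear on the 12 weeks group. The 3 arrays of 0 weeks and replicate 1 of 12 weeks lay in row 1 of slide 1, replicates 2 and 3 of 12 weeks and replicates 1 and 2 of 60 weeks in row 2, and replicate 3 of 60 weeks on slide 2. Within row 1, 220 of the 240 genes were called on replicate 1 of 12 weeks and lay above all 3 arrays of 0 weeks, where 39.4% of all tested genes met the same condition. Within row 2, 124 were called on replicates 2 and 3 of 12 weeks and lay above both arrays of 60 weeks, where the share of all tested genes was 29%. The rule chose for these values too, and nothing is read from them. The Y-linked gene Ddx3y was at 1.14 ± 0.08 at 0 weeks and 1.46 ± 0.03 at 12 weeks, and at -6.79 ± 0.14, not above background, at 60 weeks (SD, n = 3 each). Whether the organoids of 60 weeks came from the same line or animal as the others was not tested. A difference of origin cannot be told apart from treatment or time in the comparisons with 60 weeks.

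Replicate 2 of 12 weeks stood apart from its group. Its correlation across all tested genes was 0.978 with replicate 1 and 0.977 with replicate 3. Between replicates 1 and 3 it was 0.992, and within 0 and 60 weeks 0.990 to 0.996. Of the 129 genes called on 2 arrays, 95 were missed on replicate 2, 21 on replicate 3 and 13 on replicate 1. The lowest signal called well above background was -5.17, -4.52 and -4.67 on replicates 1, 2 and 3. Of all probes, 52.7%, 49.2% and 51.3% were so called on them. The part of these array differences in the missed calls was not tested. Replicate 2 lay more than 1 log2 unit below the mean of replicates 1 and 3 for 88 of the genes and more than 1 unit above it for 29, whereas over all tested genes 4.66% lay that far below and 4.37% that far above. Over all tested genes, replicate 2 was the lowest of the 3 arrays in 38.7% and the highest in 45.5%. The median deviation was -0.41 over the 240 genes, 0.11 over the 111 called on all 3 arrays and 0.04 over all tested genes. Among the 111 called on all 3 arrays, replicate 2 lay more than 1 unit below for 16 and above for 14. Set likewise against the mean of the others, replicate 1 lay that far below for 19 of the 240 genes and above for 47. For replicate 3 these counts were 13 and 60. A gene at background on 1 array could enter the list, but not one at background on 2, so single-array departures are cut off at that point. All tested genes were not chosen in this way, so nothing is read from the difference to their shares. The genes were sorted into roles from textbook knowledge after their values were seen, and genes named within a role beyond the rule for named genes were picked likewise.

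**Figure D2:**
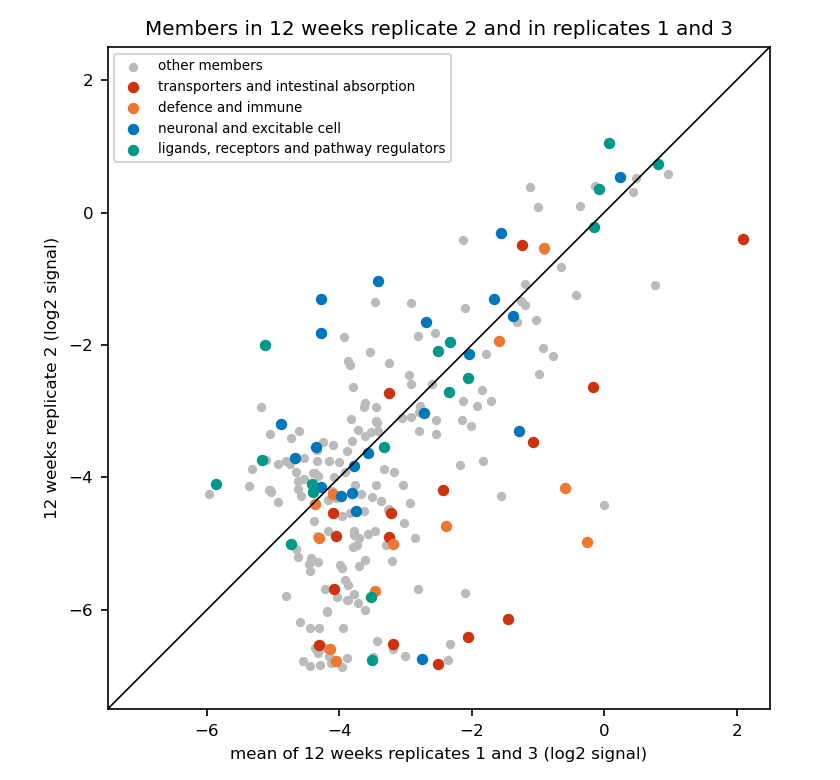
Level of each of the 240 genes in replicate 2 of 12 weeks (vertical axis) against the mean of replicates 1 and 3 (horizontal axis), both as log2 levels over the 75th percentile, with the diagonal as a line of equality. Genes of transport and absorption (red) and defence (orange) lie mostly below the diagonal, with median deviations of -1.99 and -2.04. Neuronal genes (blue) and ligands and receptors (green) lie about it, with 0.14 and 0.19. The median over all 240 genes was -0.41.

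Genes of transport and intestinal absorption made up 16 of the 240 and held the brightest gene of all. In 12 of the 16, replicate 2 lay more than 1 log2 unit below the mean of replicates 1 and 3, and in none more than 1 unit above it. Over all 240 genes, 88 lay that far below and 29 that far above. Their median levels at 12 weeks were -2.74, -4.71 and -2.93 in replicates 1, 2 and 3.

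Slc5a8, which carries short-chain fatty acids and lactate into colonocytes with sodium, was at -6.24, -6.31 and -6.38 at 0 weeks, 2.29, -0.41 and 1.90 at 12 weeks, with -6.53, -6.34 and -6.61 at 60 weeks. All 3 arrays of 12 weeks were high, replicate 2 the least so, and the groups did not overlap. The level at 12 weeks was at least 64.0-fold higher than at 0 weeks, and at 60 weeks it was at least 63.0-fold lower than at 12 weeks. Guca2b, the gut peptide uroguanylin that opens chloride secretion through guanylate cyclase C, was at -5.63, -6.19 and -6.79 at 0 weeks, 0.31, -2.63 and -0.66 at 12 weeks, with -6.88, -5.44 and -7.06 at 60 weeks. It was at least 13.4-fold higher at 12 than at 0 weeks. Apob, the structural protein of chylomicrons that carry absorbed fat, had -0.61, -3.46 and -1.53 at 12 weeks, and its 2 probes were both detected only there.

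Bile acids leave the gut cell towards the blood through the organic solute transporter, and both of its 2 genes were detected only at 12 weeks. Nothing is read from their likeness, since the rule chose for detection at 12 weeks only. A missed call on replicate 2 alone was shared by 95 of the genes that the rule took. Slc51a was at -6.61, -7.06 and -6.93 at 0 weeks, -2.09, -6.82 and -2.93 at 12 weeks, with -6.97, -6.86 and -6.96 at 60 weeks. Slc51b was at -6.12, -5.48 and -6.01 at 0 weeks, -1.95, -6.41 and -2.15 at 12 weeks, with -6.55, -6.84 and -7.18 at 60 weeks. For both, replicates 1 and 3 of 12 weeks were high and replicate 2 lay among the arrays of the other times, so the groups overlapped. Abcg5, which with a partner pumps plant sterols back into the gut, had -1.19, -6.13 and -1.72 at 12 weeks, with replicate 2 only just above the arrays of the other times, the highest of which was at -6.29. The sulphate transporter Slc13a1 had -2.77, -6.51 and -3.61, and its groups overlapped. Abcg1, an exporter of cholesterol, had -2.71, -4.53 and -3.73, and Slc13a2, a carrier of citrate and related acids, had -4.51, -4.89 and -3.58. An exception was Slc29a4, a monoamine transporter, which was highest in replicate 2, with -1.02, -0.49 and -1.45.

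**Figure D3:**
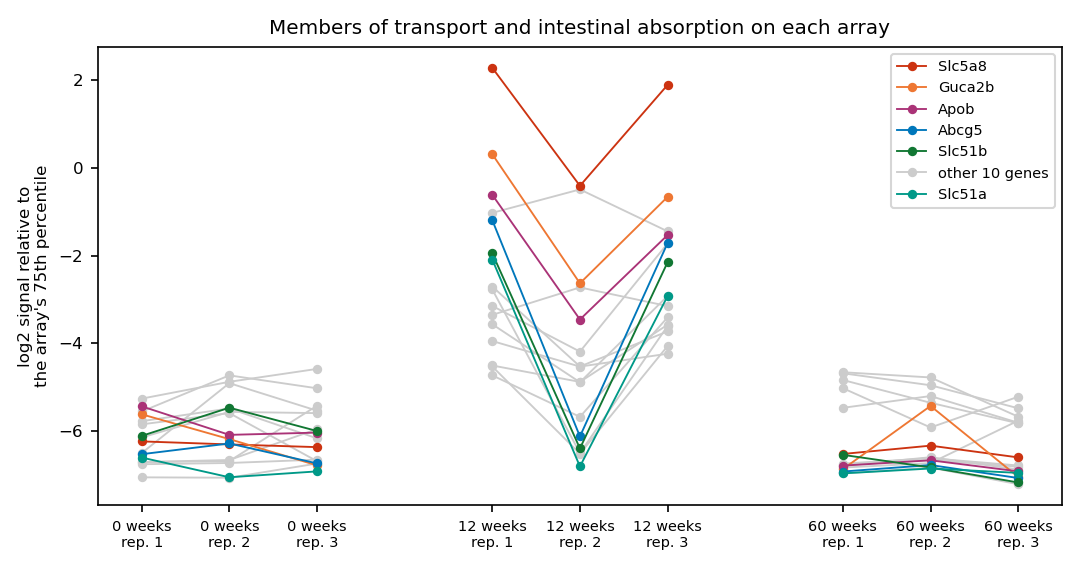
Levels of the 16 transport and absorption genes on each of the 9 arrays (horizontal axis), as log2 levels over the 75th percentile, with lines joining the arrays of a group for each gene and 6 genes in colour. At 12 weeks most lines dip in replicate 2, where Slc51a is at -6.82 and Slc5a8 at -0.41.

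The promoters of 5 of these genes, each lowest in replicate 2 among the 12 weeks arrays, are shown from RefSeq with build GRCm38.p6, each 300 bases from 250 before to 50 after the start of the gene, on the strand of the gene. Capitals mark matches on either strand to GGGA and CC with any 4 bases between them (NF-kB), TGANTCA (AP-1), TTCNNNGAA (STAT), TATAAA (the TATA box) and CTTTGA (TCF), none of which overlapped another here.
Slc5a8, chr10:88885742-88886041, plus strand: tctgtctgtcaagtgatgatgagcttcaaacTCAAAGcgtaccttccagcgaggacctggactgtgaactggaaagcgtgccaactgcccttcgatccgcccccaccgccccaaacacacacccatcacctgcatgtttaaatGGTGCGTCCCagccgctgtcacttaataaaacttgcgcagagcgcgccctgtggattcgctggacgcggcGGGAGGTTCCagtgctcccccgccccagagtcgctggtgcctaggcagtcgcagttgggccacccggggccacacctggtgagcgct
Slc51a, chr16:32487830-32488129, minus strand: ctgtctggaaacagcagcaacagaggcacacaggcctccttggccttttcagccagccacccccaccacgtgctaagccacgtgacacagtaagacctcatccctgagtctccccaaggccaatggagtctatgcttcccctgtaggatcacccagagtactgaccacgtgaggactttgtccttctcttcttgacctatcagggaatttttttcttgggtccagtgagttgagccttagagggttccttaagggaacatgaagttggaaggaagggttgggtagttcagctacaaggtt
Slc51b, chr9:65422724-65423023, minus strand: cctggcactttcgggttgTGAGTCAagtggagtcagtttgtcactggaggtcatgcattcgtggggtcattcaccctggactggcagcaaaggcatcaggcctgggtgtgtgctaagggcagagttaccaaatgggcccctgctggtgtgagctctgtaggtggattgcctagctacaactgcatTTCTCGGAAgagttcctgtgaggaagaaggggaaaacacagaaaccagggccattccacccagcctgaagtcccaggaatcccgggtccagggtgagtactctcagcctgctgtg
Abcg5, chr17:84682962-84683261, minus strand: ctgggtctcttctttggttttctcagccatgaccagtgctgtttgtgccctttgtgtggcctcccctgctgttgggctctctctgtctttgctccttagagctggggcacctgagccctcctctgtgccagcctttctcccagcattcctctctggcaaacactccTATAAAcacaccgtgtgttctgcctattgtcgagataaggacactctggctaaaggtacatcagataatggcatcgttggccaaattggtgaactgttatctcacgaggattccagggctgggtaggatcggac
Apob, chr12:7977427-7977726, plus strand: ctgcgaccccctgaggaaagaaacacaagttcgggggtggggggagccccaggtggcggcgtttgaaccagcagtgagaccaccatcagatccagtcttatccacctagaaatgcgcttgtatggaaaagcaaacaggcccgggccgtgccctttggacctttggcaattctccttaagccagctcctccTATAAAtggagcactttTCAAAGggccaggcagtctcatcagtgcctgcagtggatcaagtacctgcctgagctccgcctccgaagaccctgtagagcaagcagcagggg

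Slc5a8 held 2 NF-kB matches, the nearer beginning 37 bases before the start, and a TCF match at 219. Slc51b held an AP-1 match at 232 and a STAT match at 65 bases before the start, Abcg5 a TATA match at 84 and Apob a TATA match at 60 and a TCF match at 43. Slc51a held none of the 5. Over all 32851 promoters of this length, 20.7% held the NF-kB letters, 7.81% AP-1, 8.30% STAT, 13.6% TATA and 16% TCF. Of the 15 promoters listed for 13 of the 16 transport and absorption genes, 6 (40.0%) held TATA, as did 20.4% of promoters of genes detected on no array. The same 15 held NF-kB letters in 26.7%, AP-1 in 13.3%, STAT in 13.3% and TCF in 26.7%. Of letters not marked above, GGGCGG was in 20% of the 15 against 35.7% of all promoters. CCAAT was in 20% against 37.4%. The role was formed after the values were seen. For the whole list a comparison of promoter letters is void, since only 190 of the 240 genes (79.2%) had a promoter in the table, under the 80% set as the minimum. A match is a string of letters, and binding was not measured.

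Mature colonocyte and brush border genes outside the 240 were tested, since the rule did not choose them. The test is not independent of the rule, which took 5 other genes of the list by these same signals. Of 33 such genes, 21 were higher and 6 lower at 12 than at 0 weeks by limma (Benjamini-Hochberg adjusted p under 0.05). Of all tested genes 41.8% were called, 2672 higher and 3180 lower. Their median log2 change was 1.58, against -0.06 over all tested genes. At 60 against 12 weeks, 16 were lower and 2 higher, with a median of -0.77 against 0.02 over all tested genes, of which 38.3% were called, 2473 lower and 2900 higher. Ush1c, a scaffold of brush border tips, rose by 4.84 ± 0.21 (SE, limma adjusted p = 1.93e-06) to 2.97 ± 0.15 at 12 weeks, against -1.86 ± 0.39 at 0 weeks (SD, n = 3 each), and fell by 3.75 ± 0.21 at 60 against 12 weeks (limma adjusted p = 9.14e-06). The cadherin Cdhr5 rose by 1.80 ± 0.15 (limma adjusted p = 4.99e-05) and the phosphate transporter Slc20a1 by 1.13 ± 0.11 (limma adjusted p = 0.000112). B4galnt2, a glycosyltransferase, went the other way, with -4.19 ± 0.63 at 12 weeks, where 1 of 3 arrays was above background, against -0.45 ± 0.33 at 0 weeks (SD, n = 3 each, limma adjusted p = 8.51e-05). In 22 of these 33 genes replicate 2 lay below replicates 1 and 3, with a median deviation of -0.30, where that held for 38.7% of all tested genes. Without replicate 2, 21 were higher and 5 lower at 12 against 0 weeks. The signal of all 53 such genes on the array, the 5 of the list included, was summed on a linear scale. It was 605 to 631 at 0 weeks, 562 to 744 at 12 weeks and 429 to 443 at 60 weeks. The ranges of 0 and 12 weeks overlapped. Of the 53, 12 were detected on no array, among them Slc26a3 and Dpp4. Of 14 goblet and Paneth genes, 8 were higher and none lower at 12 than at 0 weeks. Their median change was 1.72, so the rise was not peculiar to colonocyte genes. At 60 against 12 weeks, 5 of the goblet and Paneth genes were higher and 2 lower, with a median of -0.08. At 60 against 0 weeks, 10 were higher and 1 lower, with a median of 1.35. Of the 33 colonocyte genes, 7 were higher and 5 lower in that comparison, with a median of -0.02. Over all tested genes 32.8% were called there, and the median was -0.04.

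Ligands, receptors and regulators of signalling numbered 17, of which 11 were called on all 3 arrays, and replicate 2 lay above replicates 1 and 3 in 9 of them and below in 6, where the shares of all tested genes were 45.5% and 38.7%. Gas6, a ligand of the Tyro3, Axl and Mer receptors that clear dying cells and damp inflammation, was at -5.43, -4.94 and -5.13 at 0 weeks, 0.68, 0.74 and 0.95 at 12 weeks, with -7.01, -6.88 and -6.51 at 60 weeks. The SD of its 12 weeks arrays was 0.14, and the level was at least 46.2-fold higher at 12 than at 0 weeks. Pros1, which encodes protein S, another ligand of these receptors, was much dimmer, with -3.45, -5.80 and -3.61 at 12 weeks.

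Several members belong to the Wnt pathway, which maintains crypt stem cells. The ligand gene Wnt10a was at -7.02, -7.00 and -6.88 at 0 weeks, -0.10, 1.04 and 0.23 at 12 weeks, with -5.81, -6.06 and -7.11 at 60 weeks. It was at least 35.1-fold higher at 12 than at 0 weeks and at least 34.6-fold lower at 60 than at 12 weeks. The Wnt receptor Fzd3 had -2.19, -2.72 and -2.50 at 12 weeks, and the pathway inhibitors Dact2 and Amer2 averaged -3.40 ± 0.12 and -4.34 ± 0.13 (SD, n = 3). Ascl2, a transcription factor of crypt stem cells and a Wnt target, was at -4.57, -5.35 and -4.96 at 0 weeks, -2.12, -2.50 and -1.99 at 12 weeks, with -4.73, -4.61 and -5.18 at 60 weeks, without overlap. It was at least 5.54-fold higher at 12 than at 0 weeks. Of 19 other stem and crypt base genes, 6 were higher and 2 lower at 12 than at 0 weeks, and 2 higher and 1 lower at 60 than at 12 weeks, with median changes of -0.09 and 0.14, where 41.8% and 38.3% of all tested genes were called in either direction.

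Other ligands were steady across the 12 weeks arrays. Vegfc, a growth factor of lymphatic vessels, had -0.02, -0.22 and -0.30 at 12 weeks and was at least 23.6-fold higher than at 0 weeks. Adgrg6, an adhesion receptor that couples to G proteins, had 0.11, 0.36 and -0.25, and Nrg1, a ligand of ErbB receptors that supports intestinal repair, had -2.33, -2.09 and -2.69. The hedgehog ligand Dhh, outside the 240 because it was detected at 60 weeks, changed by -4.42 ± 0.22 at 60 against 12 weeks (limma adjusted p = 5.05e-06), and Ihh, called on 1 array of 0 weeks, was at -5.58 ± 0.69, not above background on any array, at 60 weeks, against -0.14 ± 0.98 at 12 weeks (SD, n = 3 each). Of 13 hedgehog genes outside the 240, Dhh and Ihh included, 3 were higher and 5 lower at 12 than at 0 weeks, where 41.8% of all tested genes were called. The cytokine receptors Lifr and Il1rl1, which bind leukaemia inhibitory factor and interleukin-33, were at background in replicate 2 of 12 weeks, with -6.75 and -6.77. In replicates 1 and 3 Lifr had -3.23 and -3.79 and Il1rl1 -4.43 and -3.67. Igfbp7, which binds insulin-like growth factors, averaged -4.31 ± 0.18 (SD, n = 3).

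Proteases and their inhibitors numbered 12. Adamdec1, a secreted relative of the ADAM metalloproteases, was at -6.91, -6.92 and -6.82 at 0 weeks, 1.05, 0.58 and 0.89 at 12 weeks, with -6.90, -5.83 and -6.09 at 60 weeks. It was at least 47.9-fold higher at 12 than at 0 weeks and at least 47.2-fold lower at 60 than at 12 weeks. Its neighbour on chromosome 14, Adam28, with no protein-coding gene between them, had 0.46, 0.53 and 0.50 at 12 weeks, the closest agreement between replicates among the brightest genes, with an SD of 0.03. It was at least 37.6-fold higher at 12 than at 0 weeks. Prss12, which encodes the protease neurotrypsin, had -0.96, 0.38 and -1.29. The trypsin genes Try4 and Try5 on chromosome 6 had -6.60 and -6.51 in replicate 2 of 12 weeks, and -2.71 and -1.81 in replicate 1. The members Gm5771 and Prss1 lie close by, with 2 protein-coding genes between Try5 and Gm5771 and 1 between Gm5771 and Prss1. Genes of the trypsin family are near-identical, so their probes may share targets.

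Neighbouring members occurred elsewhere. Vim and St8sia6 lie side by side on chromosome 2, with no protein-coding gene between them. Vim, the intermediate filament protein of mesenchymal and migrating cells, was at -6.76, -6.76 and -6.66 at 0 weeks, -2.71, -1.86 and -2.92 at 12 weeks, with -6.78, -6.61 and -6.92 at 60 weeks. St8sia6, a sialyltransferase, had -0.65, 0.09 and -1.35 at 12 weeks, so that replicate 2 was highest for both. Vim also marks fibroblasts in tissue. The summed signal of 30 fibroblast, muscle and endothelial markers, Vim included, was 97.4 to 109 at 0 weeks, 65.0 to 90.3 at 12 weeks and 58.1 to 78.1 at 60 weeks. It is in units of the array's 75th percentile, and 15 of the 30 were detected on no array. The part of fibroblasts in the level of Vim was not tested. Hsd3b2 and Hsd3b3, adjacent steroid dehydrogenase genes on chromosome 3, had -5.37 and -4.41 in replicate 2 of 12 weeks, against -3.69 and 0.35 in replicate 1. They are close paralogs, and their probes may share targets. Lingo2 with 1700009N14Rik on chromosome 4, and Rnf150 with Tbc1d9 on chromosome 8, were the other adjacent pairs.

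Genes best known from neurons and other excitable cells were the largest named group, with 21 genes, 13 of them called on all 3 arrays. Kif1a, a motor that carries synaptic vesicle precursors, was at -6.69, -6.63 and -6.55 at 0 weeks, 0.46, 0.54 and 0.01 at 12 weeks, with -5.36, -6.12 and -6.77 at 60 weeks. Both of its probes were detected only at 12 weeks, and it was at least 33.8-fold higher there than at 0 weeks. The potassium channel Kcnj4 and the scaffold Shank2 were highest in replicate 2, with -0.31 and -1.83 there. In replicates 1 and 3, Kcnj4 had -1.52 and -1.61 and Shank2 -4.23 and -4.31. The cell adhesion genes Lingo2 and Nrcam averaged -1.44 ± 0.11 and -1.54 ± 0.40 (SD, n = 3). Replicate 2 lay more than 1 log2 unit above the mean of replicates 1 and 3 in 6 of the 21 and that far below it in 2. Vgf, a precursor of neuropeptides, was missed on replicate 1, with -5.15, -1.30 and -3.40 at 12 weeks. Insm1, a transcription factor of neuroendocrine cells, had -4.33, -3.71 and -5.00. Of 13 other enteroendocrine genes 3 were higher and none lower at 12 than at 0 weeks, and of 12 neuron and glia markers none was higher and 3 were lower, where 41.8% of all tested genes were called. The summed signal of 22 neuron and glia markers was 38.4 to 44.2 at 0 weeks, 35.8 to 58.4 at 12 weeks and 47.7 to 54.1 at 60 weeks, and the part of such cells in these values was not tested.

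Lipid mediators and purine signalling gave 7 genes with the highest median level of all roles, -1.56. Alox5, the enzyme that starts leukotriene synthesis, was at -7.00, -6.99 and -6.87 at 0 weeks, -1.90, -0.41 and -2.37 at 12 weeks, with -6.93, -6.80 and -7.14 at 60 weeks, at least 9.06-fold higher at 12 than at 0 weeks. Alox5ap, its partner protein and no member, changed the other way, with -4.61 ± 0.14 at 12 against 0 weeks and 2.05 ± 0.14 at 60 against 12 weeks (limma adjusted p = 3.55e-07 and 2.83e-05). Ltb4r1, a receptor of leukotriene B4, reached -4.22, -4.58 and -3.71 at 12 weeks, close to background. P2ry1, a receptor of ADP, had -1.16, -0.56 and -0.65, Nt5e, which makes adenosine outside the cell, -1.08, -1.65 and -1.56, and Pla2g7, which breaks down platelet-activating factor, -1.11, -1.62 and -0.95. Alox5 and Gng13, a G protein subunit of taste and tuft cells, are also tuft cell genes. Of 9 other tuft cell genes, 1 was higher and 4 were lower at 12 than at 0 weeks, where 41.8% of all tested genes were called, and 12 of 25, among them Trpm5 and Gnat3, were detected on no array.

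Defence and immune genes gave 12 members, only 3 of them called on all 3 arrays, and replicate 2 lay more than 1 log2 unit below the mean of the others in 7. Ubd, a ubiquitin-like protein induced by inflammatory cytokines, had 0.32, -4.17 and -1.49 at 12 weeks, and the lectin gene Clec2h had -0.45, -4.97 and -0.07. Reg3b, an antimicrobial lectin, had -4.37, -6.59 and -3.91, and Gbp5, a guanylate-binding protein induced by interferon, -3.39, -5.72 and -3.52. These 4 genes were thus lowest in replicate 2. Pglyrp3, which binds bacterial cell walls, had -4.46, -4.92 and -4.16. Gsdme, a gasdermin that forms pores in membranes, was an exception, with -0.94, -0.54 and -0.89 at 12 weeks, and was at least 15.5-fold higher than at 0 weeks. Of 35 other interferon-stimulated genes, 25 lay lowest in replicate 2 among the 12 weeks arrays, with a median deviation of -0.78, where replicate 2 was lowest in 38.7% of all tested genes. At 12 against 0 weeks 9 of them were higher and 2 lower, and at 60 against 12 weeks 6 were higher and 2 lower. Of 28 other antimicrobial and acute-phase genes, 13 were higher and 6 lower at 12 than at 0 weeks, and 11 higher and 2 lower at 60 than at 12 weeks. For both lists, 41.8% and 38.3% of all tested genes were called in these comparisons. The summed signal of 23 myeloid markers, which include S100a8 and S100a9, was 38.0 to 44.3 at 0 weeks, 98.1 to 193 at 12 weeks and 69.7 to 81.1 at 60 weeks. S100a9 alone was at -6.08 ± 0.19, 6.08 ± 0.95 and 2.23 ± 0.30 at these times (SD, n = 3 each). Of 11 such markers tested, 4 were higher and 1 lower at 12 than at 0 weeks, where 41.8% of all tested genes were called. The part of myeloid cells in the values of the defence genes was not tested.

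Among 17 metabolic enzymes, replicate 2 lay more than 1 log2 unit below the mean of replicates 1 and 3 in 9. Cdo1, which oxidises cysteine, was at -6.92, -6.92 and -6.80 at 0 weeks, -0.22, 0.41 and -0.04 at 12 weeks, with -6.88, -4.90 and -7.08 at 60 weeks, at least 27.6-fold higher at 12 than at 0 weeks. The steroid dehydrogenase gene Hsd3b3 had 0.35, -4.41 and -0.36 at 12 weeks. Pck1, the enzyme that commits carbon to gluconeogenesis, had -4.47, -6.81 and -3.78, and the drug-metabolising cytochrome P450 gene Cyp2c29 -2.19, -5.74 and -2.0. Cdo1 was thus steady, whereas the other 3 were lowest in replicate 2.

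Matrix genes gave 9 members, 7 of them called on all 3 arrays. Both nidogen genes named on the array, which encode linkers of laminin and collagen in basement membranes, were among them. Nid1 had -3.20, -1.37 and -2.62 at 12 weeks and Nid2 -3.78, -3.15 and -3.12. They were at least 5.08-fold and 2.62-fold higher at 12 than at 0 weeks, although only 1 of the 3 probes of Nid1 was called. Of the squamous and urothelial genes, Krt6a, a keratin of wounded skin, had -1.33, -1.34 and -1.19 at 12 weeks and was at least 10.9-fold higher than at 0 weeks. Sprr2e, a cornified envelope gene, was called on 2 arrays, with -5.04, -4.25 and -6.89, and its arrays of 60 weeks had -4.90, -4.87 and -5.76, so the groups overlapped. Bnc1 and Bnc2, the 2 basonuclin genes, were members too, Bnc1 with -4.86, -3.75 and -3.81 and Bnc2 with -4.92, -6.27 and -3.97. Of 40 other cornified envelope and squamous genes, 20 were higher and 7 lower at 12 than at 0 weeks, and 7 higher and 11 lower at 60 than at 12 weeks, where 41.8% and 38.3% of all tested genes were called. Germline genes gave 8 members of modest level, from -4.93 to -2.80, led by Zan, which encodes a sperm head protein.

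The bright genes left were of mixed function. Epdr1, a secreted glycoprotein, had 0.51, 0.31 and 0.35 at 12 weeks and was at least 35.1-fold higher than at 0 weeks. Srgap1 had 1.18, -1.09 and 0.35, and all 3 of its probes were detected only at 12 weeks. Dapk1, a kinase of cell death and autophagy, averaged -0.21 ± 0.32, Arhgap44 -0.70 ± 0.53 and the actin regulator Enah -0.71 ± 0.17 (SD, n = 3). In all, 47 of the 240 genes had several probes. In 12 of them each probe met the rule at 12 weeks, and in 35 only some did, so in those the signal may be of part of the transcripts.

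**Figure D4:**
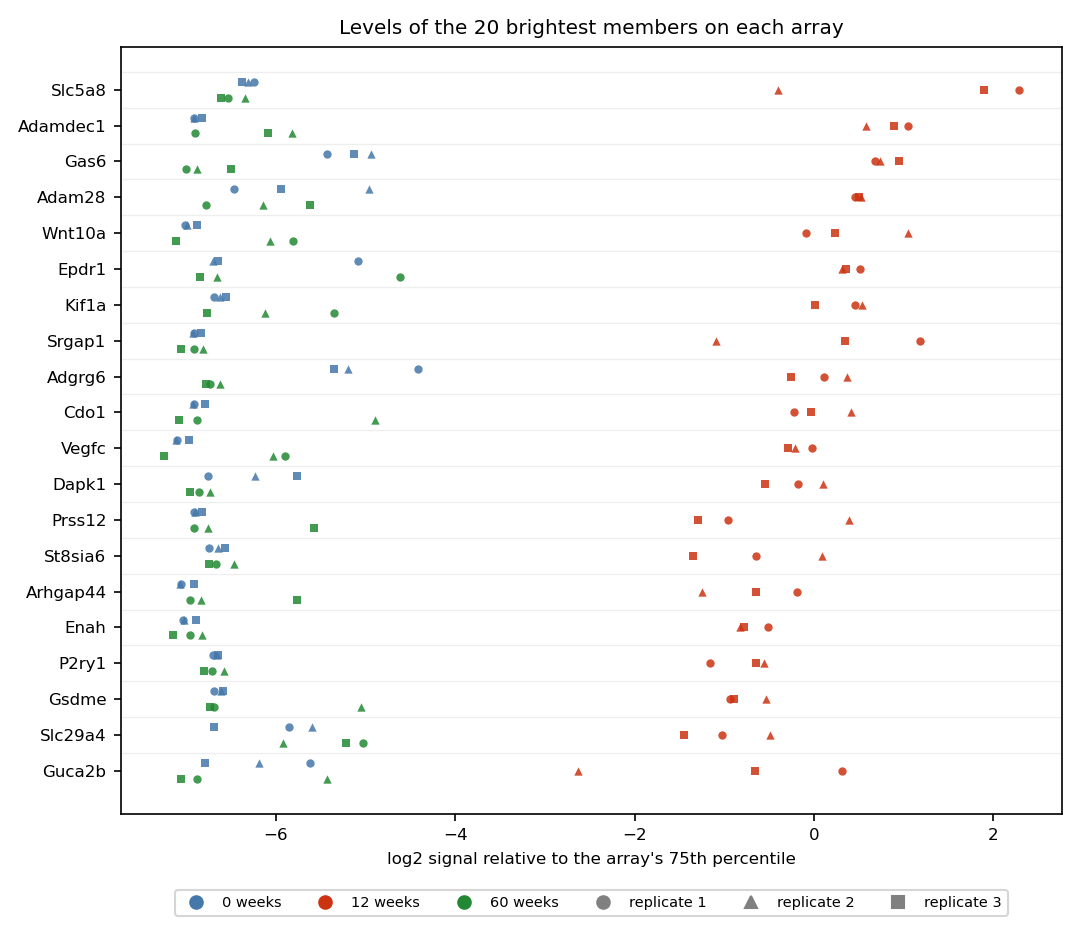
Levels of the 20 brightest of the 240 genes on each array (horizontal axis, log2 level over the 75th percentile), with colour for time and symbol for replicate, ordered from the highest mean at 12 weeks (top). The 12 weeks points (red) lie apart from the 0 weeks points (blue) and 60 weeks points (green), and Slc5a8, Guca2b and Srgap1 spread most, with SDs of 1.46, 1.5 and 1.15.

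The genes were spread over all autosomes. Their share of the named genes was highest on chromosomes 14 (17 of 728, 2.34%), 6 (25 of 1115, 2.24%) and 12 (13 of 639, 2.03%), and lowest on chromosome 11 (6 of 1602, 0.375%). The 25 on chromosome 6 include the clustered genes Try4, Try5, Gm5771 and Prss1, whose probes may share targets. Chromosome 6 also held the most genes detected only at 0 weeks, 14 of 84, where chromosome 14 held 5, chromosome 12 held 1 and chromosome 11 held 8. Genes detected on all 9 arrays had a median log2 change at 12 against 0 weeks of 0.17 on chromosome 14, 0.21 on chromosome 12, 0.25 on chromosome 4 and 0.16 on chromosome 5, and of -0.14 on chromosome 6 and -0.13 on chromosome 11. Chromosome 4 held 12 of the genes (0.968% of its named genes) and chromosome 5 held 18 (1.53%). The part of such whole-chromosome shifts in the members' levels was not tested.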

How the data were processed

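The 9 single-colour arrays were quantified by the authors, per the file headers, with Agilent Feature Extraction 10.7.3.1 (protocol GE1_107_Sep09). The deposited scanner files hold an intensity per spot, background-subtracted on a linear scale and not scaled between arrays, and the scanner's calls. The deposited value table holds a signal per probe that equals the scanner intensity divided by a constant per array, near its 75th percentile. It served as an alternative. Columns matched to no sample numbered 0.

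Outlier spots were dropped from levels, replicate spots were averaged per probe, and the log2 ratio to the array's 75th percentile was used. A probe was detected on an array when most of its spots were called well above background. Probes were named through RefSeq accessions in the GRCm38.p6 annotation, while the design's own build is mm9:NCBI37:Jul2007, so no annotation coordinates are printed for probes. All named genes above background on 2 of 3 arrays of at least 1 group (14013) were fitted with limma 3.58.1 (lmFit, eBayes) in R 4.3.3 over all 9 arrays, without a replicate block, two-sided, with Benjamini-Hochberg adjustment over all of them. The fit was tested on simulated data. Same-numbered arrays of different groups deviated together with correlations of -0.08 to 0.20, not all over 0.1, so numbers were not taken to pair arrays. The files have no mean signal column, so normexp, an alternative, used the median spot signal. Precision is limited by 3 arrays per group, with 49.2% to 52.7% of probes well above background.

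The 240 genes, the gene lists and the tests were chosen with earlier results of these data known. Genes named in the text are the 20 brightest with a gene symbol other than a clone name, those in a gene list, up to 12 that share a family or adjoin, the 3 dimmest, the 3 nearest outside, up to 6 missed on replicate 1 or 3, and up to 4 others per gene list in order of adjusted p. Others were picked within roles. Some genes that the rule names are not reported here.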

Additional observations from a re-analysis of the deposited data

Results flagged for a closer look

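Probes without a gene symbol were not used in the comparisons. By the same detection rule, 185 of 28446 such probes were detected only at 12 weeks, against 168 only at 0 weeks and 93 only at 60 weeks. They are given here as a signal in data that the comparisons left out, and what they measure was not analysed here.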

How the results depend on the processing

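The number of genes detected only at 12 weeks (240) was 149 with the weaker positive-and-significant call, 36 of them shared, 111 with all 3 arrays of 12 weeks required and 112 with a mean at least 2-fold above the lowest called signal. The other changes of rule gave 210 to 315, and leaving out each array in turn gave 124 to 257. The counts of called genes in the comparisons of 12 with 0, 60 with 12 and 60 with 0 weeks were 5852, 5373 and 4597. With a replicate block they were 5792, 5245 and 4453, and the block moved no count by over 1.5 times. Blocking on slide row gave 4467, 3463 and 1389, and the cause was not tested. Leaving out each array gave 4221 to 7394, 3622 to 7061 and 3196 to 6018 for the 3 comparisons, highest without replicate 2 of 12 weeks in each. The median level of the 240 genes at 12 weeks (-3.89) was -2.48 with normexp and -7.03 with the percentile over bright probes, which moves the zero of the scale, and -3.95 to -3.61 without each array. Of the colonocyte genes outside the 240, an alternative chosen after seeing the data, the deposited value table tested 17 and called 9 higher at 12 against 0 weeks and 7 lower at 60 against 12 weeks, against 21 and 16 of 33. Leaving out each array gave 17 to 21 and 14 to 20. With the first listed promoter of each gene, 5 of 13 transport and absorption promoters held TATA. Genes near background set the limit here: 111 of the 240 lay below -4.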
